A study of Homo sapiens with 28 samples.

Results

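The genes described here are the replication-dependent histone genes of the human histone clusters, taken as every gene whose symbol begins with HIST1H, HIST2H, HIST3H or HIST4H. They numbered 52 of the 13897 genes listed in any of 3 expression tables. By symbol, 3 belong to linker histone H1, 13 to H2A, 16 to H2B, 10 to H3 and 10 to H4. The H2B members HIST2H2BA and HIST2H2BC are transcribed pseudogenes in RefSeq. The table of compound treatments listed 50 of them among 13481 genes. The table of siRNA in H2009 held 26 among 12068 genes and that of siRNA in H596 held 42 among 12384, and 21 members stood in all 3. The symbol alone decided which genes belong to the set. The set itself was chosen with earlier results of these data known.

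The study measured RNA in 20 libraries of H2009 and H596, established human non-small-cell lung cancer lines labelled adenocarcinoma, both of wild-type genotype per the labels. RUVBL1 is an AAA+ ATPase that works with RUVBL2 as a chaperone of large complexes. Cells called siBL1 had received an siRNA against RUVBL1 and cells called siNT one without a target. H2009 was harvested 2.5 days after transfection and H596 after 3 days. The compound B and compound C groups had received 100 nM of an agent known here only by its letter for 24 h, and the reference cells were untreated. Each group had 2 libraries that no label ties to separate cultures, and a p-value here therefore reflects just library-to-library spread, which may be technical. The cDNA libraries of RUVBL1 and RUVBL2 mutants hold no histone values and were not used here.

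Most histone protein is made in S phase, when replicated DNA must be packed into new nucleosomes. H2A, H2B, H3 and H4 form the nucleosome core, and H1 binds the linker DNA. The mRNAs of the clustered genes mostly end in a stem-loop bound by SLBP rather than in a poly(A) tail, and the factor NPAT drives their transcription at the entry to S phase. Several of them, among them HIST1H2BD, HIST1H2BK, HIST1H1C and HIST2H2BE, are also known to be made as polyadenylated mRNAs. The libraries were prepared by a poly(A)-selecting stranded kit per the labels, so the values below count mainly the polyadenylated share of each message. FPKM counts fragments per kilobase of transcript, scaled to the fragments mapped in the library. Histone genes have near-identical coding sequences, so reads may have been split between copies and every single-gene value below is uncertain to that extent. In bulk RNA, fewer cells in a phase of the cell cycle and less RNA per cell cannot be told apart.

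Most calls with compound B in H2009 fell on H2B genes, so promoter sequences are shown for 6 of them, 5 that were higher with compound B in H2009 and HIST1H2BM, which was not. Each is the run of 70 bases that ends just before the transcription start in RefSeq (GRCh38.p14). Capitals mark the stretch of 8 bases closest to the octamer ATTTGCAT, the site of the POU factor OCT1 (POU2F1) known from H2B promoters.
HIST1H2BO (H2BC17), chr6:27893355-27893424, plus strand: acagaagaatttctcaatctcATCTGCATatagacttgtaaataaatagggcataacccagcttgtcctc
HIST1H2BD (H2BC5), chr6:26158051-26158120, plus strand: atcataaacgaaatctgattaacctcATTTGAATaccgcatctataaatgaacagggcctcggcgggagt
HIST2H2BE (H2BC21), chr1:149886683-149886752, minus strand: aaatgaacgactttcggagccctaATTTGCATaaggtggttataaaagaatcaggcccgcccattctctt
HIST1H2BJ (H2BC11), chr6:27132796-27132865, minus strand: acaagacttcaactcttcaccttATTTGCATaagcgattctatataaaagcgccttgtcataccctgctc
HIST1H2BK (H2BC12), chr6:27146859-27146928, minus strand: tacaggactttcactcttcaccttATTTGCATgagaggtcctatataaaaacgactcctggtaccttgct
HIST1H2BM (H2BC14), chr6:27814952-27815021, plus strand: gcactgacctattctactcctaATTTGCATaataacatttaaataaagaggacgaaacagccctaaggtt

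All 52 symbols matched an entry of RefSeq, 46 of them with a promoter window. The exact octamer lay on the gene's own strand within 80 bases of the start in 6 of the 14 H2B promoters (42.9%), in 0 of the other 32 histone promoters and in 80 of 27305 promoters of all genes (0.293%). On either strand within 250 bases it occurred in 10 of 14 H2B promoters (71.4%), 9 of 12 H2A promoters (75.0%), 1 of 8 H3 promoters (12.5%), no H1 or H4 promoter and 1.66% of all promoters. Head-to-head H2A and H2B genes share much of that window. The pentamer CCAAT, on either strand within 250 bases, occurred in all 14 H2B, 12 H2A, 8 H3 and 3 H1 promoters, in 2 of 9 H4 promoters and in 33.0% of all promoters. The H3 gene with the octamer, HIST1H3D, and the H2A gene HIST1H2AD both start 223 bases from HIST1H2BF. Their windows hold the octamer and CCAAT at the same positions, so the same promoter was counted under H3 and under H2A. HIST2H2BA and HIST2H2BC are transcribed pseudogenes in RefSeq and have no window.

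The siRNA removed most RUVBL1 mRNA in both lines. RUVBL1 stood at 1.75 and 1.11 FPKM with siBL1 and at 87.8 and 64.3 FPKM with siNT in H2009, a log2 change of -4.98 (SE 0.34, limma). In H596 it stood at 2.26 and 2.52 FPKM with siBL1 and at 112 and 123 FPKM with siNT, a log2 change of -5.13 (SE 0.22). Its adjusted p was 0.56 and 0.158 in these lines in the fit that treats all libraries as independent, and 1.95e-07 and 2.25e-08 in a fit with a replicate block, which compares libraries that share a replicate number. The unpaired fit of the siRNA tables, with 2 libraries a group, called no gene at all at an adjusted p of 0.05. Blocked values are therefore given beside the unpaired ones below, and each SE is that of the unpaired fit. All epithelial markers checked (EPCAM, KRT8, KRT18, KRT19 and CDH1) stood at 32.8 FPKM or more in the control libraries of both lines. No leukocyte marker checked was listed, and of the fibroblast and endothelial markers the highest reached 3.91 FPKM, in H596 siRNA controls.

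The lines differed in their starting level. Summed over the members, the untreated libraries held 1255 and 1487 FPKM in H596, against 190 and 123 FPKM in H2009. HIST1H1C, a linker histone, stood at 198 and 219 FPKM in untreated H596 and at 8.64 and 2.95 FPKM in untreated H2009. HIST1H2AC, the most abundant H2A gene over the untreated libraries of both lines, stood at 229 and 373 FPKM in untreated H596 and at 4.24 and 5.65 FPKM in untreated H2009. HIST1H2BK, the most abundant H2B gene, was closer, at 308 and 365 FPKM in untreated H596 and 73.9 and 49.1 FPKM in untreated H2009. Of 50 members, 34 had both untreated H596 libraries above both untreated H2009 libraries and 9 had both below, where 37.5% and 31.7% of all genes did. HIST1H3A, HIST1H4L and HIST3H2BB were listed at 0 in every H596 library of that table, and HIST1H3G in every H2009 library. The difference between the lines was not tested.

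With compound B in H2009, genes of every core histone family rose, and H2B genes gave the highest count of calls. Among the 45 of 50 members that passed the filter of a mean of 1 FPKM, 21 were higher and 0 lower at an adjusted p of 0.05 (limma, unpaired fit), where 6.36% of all genes were called higher and 5.02% lower. H2B gave 11 of its 16 members, H2A 5 of 11 tested, H3 4 of 9, H4 1 of 7 and H1 0 of 2. With the replicate block 28 were higher and 1 lower, where 22.2% and 22.4% of all genes were. Over all 50 members the median log2 change was 0.78, and it was 1.61 for H2B, 0.57 for H2A, 0.42 for H3, 0.39 for H1 and -0.16 for H4, while the median of all genes was 0.00. Both treated libraries lay above both untreated ones for 32 members and below them for 5, and 27.5% of all genes did each. By cluster, the median log2 change was 0.50 over the 41 members on chromosome 6, 1.43 over the 6 HIST2 genes and 1.56 over the pair of HIST3 genes, both sets on chromosome 1. The HIST2 genes are mostly of the H2B family (HIST2H2BA, HIST2H2BC, HIST2H2BE and HIST2H2BF, beside HIST2H2AC and HIST2H3D). Cluster and family cannot be told apart in these medians, and the clusters were not tested against each other. The count of 21 fell to 8 without replicate 1 of compound B and to 10 without replicate 2 of the untreated cells. It fell to 12 when only the 6 libraries of H2009 were fitted. With no filter it was 22, all 21 among them. HIST3H2BB and HIST1H2AE averaged 3.92 and 3.40 FPKM with compound B in H2009, against 0.853 and 0.939 FPKM untreated. They also averaged below 1 FPKM with compound C and in H596. They passed the filter through compound B in H2009 alone, so a higher call was favoured for them.

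Among H2B genes, HIST1H2BO stood at 16.9 and 9.11 FPKM with compound B, against 2.34 and 0.523 FPKM in untreated H2009, a log2 change of 2.58 (SE 0.40, adjusted p = 0.00443, limma). HIST1H2BD stood at 82.2 and 34.7 FPKM with compound B, against 9.07 and 8.03 FPKM untreated, a log2 change of 2.51 (SE 0.36, adjusted p = 0.00333, limma). HIST2H2BE stood at 13.9 and 7.87 FPKM with compound B, against 1.5 and 1.27 FPKM untreated, a log2 change of 2.27 (SE 0.26, adjusted p = 0.00118, limma). In all 3 genes the lower treated library was more than any untreated one, and replicate 1 of compound B was the higher of the treated pair. HIST1H2BK, by far the most abundant member in H2009, stood at 261 and 152 FPKM with compound B, against 73.9 and 49.1 FPKM untreated, a log2 change of 1.71 (SE 0.31, adjusted p = 0.00835, limma). HIST1H2BJ (18.4 and 16.0 FPKM with compound B, against 4.31 and 2.82 FPKM untreated) and HIST1H2BG (11.6 and 8.60 FPKM with compound B, against 1.44 and 2.36 FPKM untreated) changed by 2.01 and 1.94 on the log2 scale. The pseudogene HIST2H2BA, at 12.1 and 7.59 FPKM with compound B, against 2.87 and 0.696 FPKM untreated, also passed the test (log2 change 2.05, adjusted p = 0.0311, limma). HIST1H2BM lay on the low side, at 0.828 and 0.537 FPKM with compound B, against 1.27 and 1.19 FPKM untreated, and did not pass (log2 change -0.41, adjusted p = 0.402, limma). Among H2B genes with the exact octamer the changes ran between -0.41 and 2.27 (median 1.90, 6 genes), and among those without it between -0.15 and 2.58 (median 1.25, 8 genes). With compound B in H596 the order of the medians was the other way, 0.51 with the octamer and 0.98 without it.

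**Figure D1:**
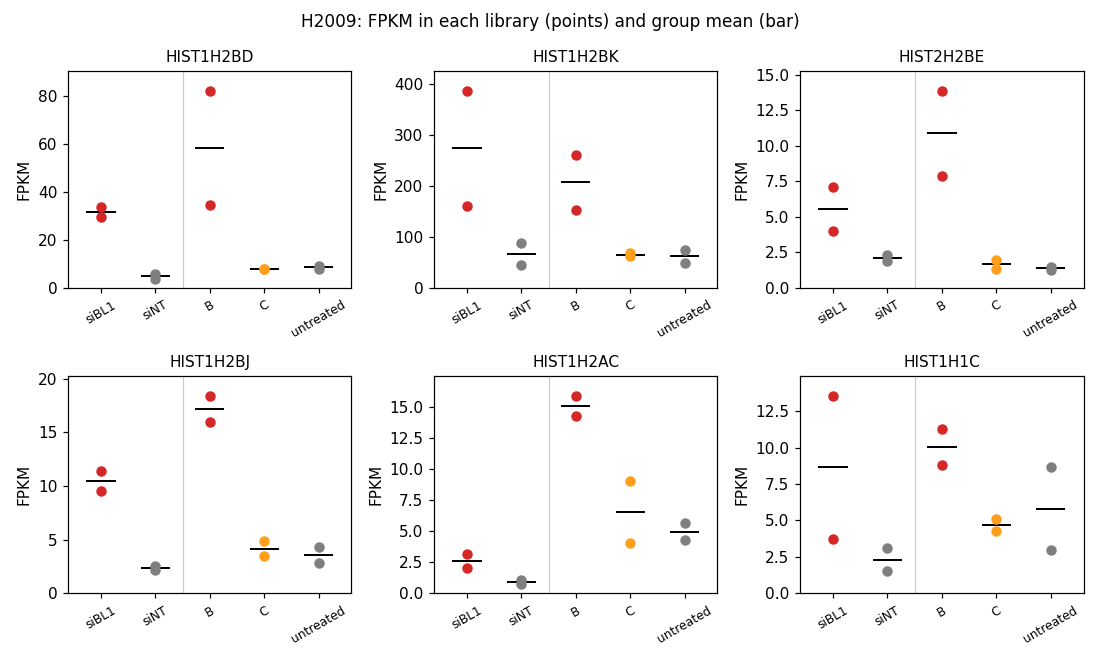
FPKM of 6 histone genes in H2009, for siBL1 and siNT on the left of the grey line and for compound B, compound C and untreated cells on the right. Points are libraries (2 per group) and bars group means. Each axis starts at 0. HIST1H2BD reached 82.2 and 34.7 FPKM with compound B, against 33.6 and 29.6 FPKM with siBL1, against at most 9.07 FPKM in compound C, untreated or siNT libraries.

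Outside H2B, HIST3H2A reached 30.2 and 16.0 FPKM with compound B, against 6.80 and 5.23 FPKM in untreated H2009 (log2 change 1.72, SE 0.26, adjusted p = 0.0040, limma). HIST1H2AC stood at 15.9 and 14.3 FPKM with compound B, against 4.24 and 5.65 FPKM untreated (log2 change 1.44, SE 0.37, adjusted p = 0.0347, limma). HIST1H3H, the most abundant H3 gene over the untreated libraries of both lines, stood at 3.03 and 4.02 FPKM with compound B, against 0.570 and 0.458 FPKM untreated (log2 change 1.57, SE 0.33, adjusted p = 0.0153, limma). These groups do not overlap in any of the 3 genes. The H4 gene HIST1H4I reached 1.86 and 0.929 FPKM with compound B, and both untreated libraries list it at 0. HIST1H4H, the most abundant H4 gene over the same libraries, stood at 5.18 and 5.2 FPKM with compound B, against 1.6 and 1.73 FPKM untreated, and missed the threshold (adjusted p = 0.0641, limma) unless blocked (0.000173). HIST1H1C, at 11.3 and 8.82 FPKM with compound B, against 8.64 and 2.95 FPKM untreated, passed only with the block (adjusted p = 0.187 unpaired and 0.0169 blocked, limma). The lowest changes belonged to HIST2H2AC, at 0.984 and 0.325 FPKM with compound B, against 2.05 and 1.17 FPKM untreated (log2 change -0.67), and to HIST1H4J (log2 change -0.65). HIST2H2AC was the member called lower with the block (adjusted p = 0.440 unpaired and 0.00423 blocked, limma).

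**Figure D2:**
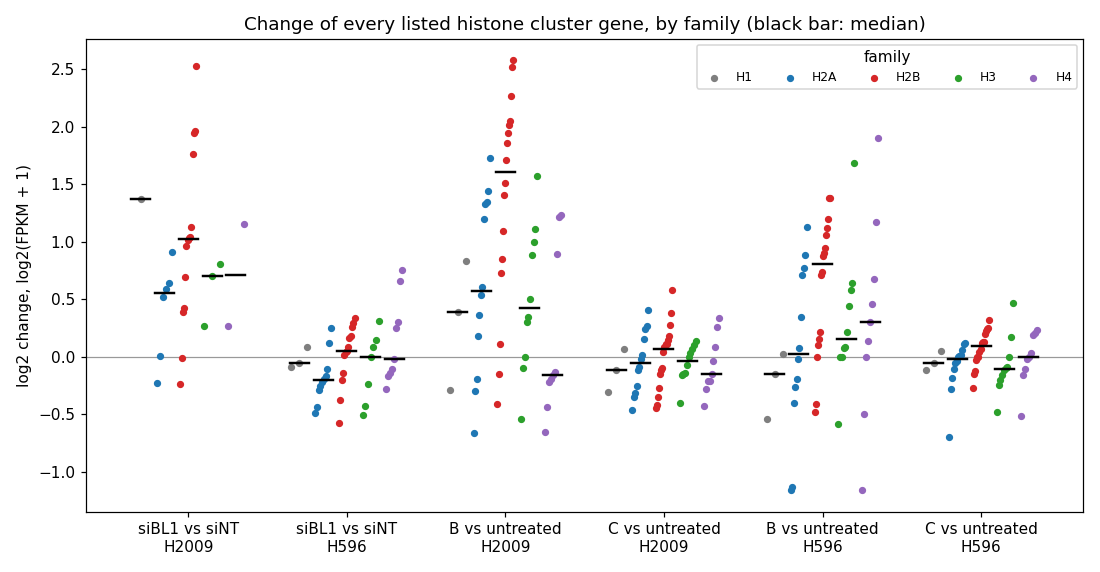
Change of every listed histone gene as log2(FPKM + 1), treated minus control, by comparison and family. Points are genes, black bars family medians, and genes listed at 0 in all libraries compared sit at 0. H2B has its median at 1.61 with compound B in H2009, 1.02 with siBL1 in H2009 and 0.81 with compound B in H596, while every family median with compound C lies between -0.15 and 0.09.

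Compound C gave no call among these genes in either line. At the same dose and time, 0 of 45 tested members passed against untreated cells in H2009 or H596, unpaired or blocked (limma), where the unpaired fit called 0.0% of all genes higher in each line and 0.00782% and 0.0% lower in H2009 and H596. At an unadjusted p under 0.05, 1 member in H2009 and 0 in H596 remained, and 3 and 5 with the block. Of all 12781 genes tested, 9 in H2009 and 20 in H596 did, and 177 and 182 with the block. Both treated libraries lay above both untreated ones for 5 members in H2009 and 4 in H596, where 4.59% and 4.16% of all genes did, and below for 6 in each line, where 2.8% and 7.43% did. Member changes with compound C ran between -0.47 and 0.58 in H2009 and between -0.70 and 0.46 in H596. A p above the threshold does not show equality: the 95% interval of the compound C change of HIST1H2BD was -0.93 to 0.70 in H2009 and -0.77 to 0.86 in H596.

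Compared directly, compound B exceeded compound C in 20 of 45 tested members in H2009 and fell below it in 0 (limma, unpaired), where 6.16% and 5.28% of all genes were called. HIST1H2BO stood at 16.9 and 9.11 FPKM with compound B, against 0.729 and 0.809 FPKM with compound C, a difference of 2.93 on the log2 scale (95% interval 2.03 to 3.82, adjusted p = 0.00258, limma). HIST1H2BD stood at 82.2 and 34.7 FPKM with compound B, against 7.73 and 7.88 FPKM with compound C, a difference of 2.63 (95% interval 1.81 to 3.45, adjusted p = 0.00271, limma). HIST2H2BF, at 19.2 and 20.7 FPKM with compound B, against 3.96 and 2.76 FPKM with compound C, differed by 2.28 (95% interval 1.67 to 2.89). HIST1H2BF, near 0 in H2009, differed by -0.06 (95% interval -0.55 to 0.43). HIST3H2BB and HIST1H2AE averaged 0.699 and 0.507 FPKM with compound C in H2009. They passed the filter through compound B alone, so a higher call was favoured for them here too. The count of 20 was 8 without replicate 1 of compound B, 12 without replicate 2 of compound C, and 13 with only the 6 libraries of H2009 or without genes listed at 0. In H596 no member passed between the compounds unpaired (smallest adjusted p = 0.229, limma), where 0.00782% of all genes were called higher. An unadjusted p under 0.05 was found there for 20 members, and for 599 of all 12781 genes tested. With the block 17 members were higher and 1 lower, where 2.99% and 1.67% of all genes were. These and the comparisons with untreated cells share libraries, so they are no independent repeats of each other.

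In H596, calls with compound B in all core histone families came from the fit with the block. The unpaired fit called 0 of 45 members, and 0.0% of all genes. An unadjusted p under 0.05 was found for 22 members, and for 735 of all 12781 genes tested. With the block 17 were higher and 3 lower, where 3.79% and 2.89% of all genes were: 9 of 16 H2B members, 2 of 11 H2A, 3 of 9 H3 and 3 of 7 H4 were higher. Over all 50 members the median log2 change was 0.22, with 0.81 for H2B, 0.31 for H4, 0.15 for H3, 0.02 for H2A and -0.15 for H1, and the median of all genes was -0.02. Both treated libraries lay above both untreated ones for 21 members, as for 13.8% of all genes, and below for 7, as for 14.8%.

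HIST1H2BD stood at 372 and 258 FPKM with compound B, against 160 and 113 FPKM in untreated H596, a log2 change of 1.20 (SE 0.36, adjusted p = 0.517 unpaired and 0.0172 blocked, limma). HIST1H2BF stood at 12.7 and 17.3 FPKM with compound B, against 5.47 and 4.75 FPKM untreated, a log2 change of 1.38 (SE 0.22, adjusted p = 0.122 unpaired and 0.00221 blocked, limma). HIST2H2BF stood at 18.9 and 20.8 FPKM with compound B, against 7.03 and 7.04 FPKM untreated, a log2 change of 1.38 (SE 0.27, blocked adjusted p = 0.00433, limma). No treated library of these H2B genes overlapped an untreated one. HIST1H2BK, the most abundant H2B gene, did overlap, at 432 and 322 FPKM with compound B, against 308 and 365 FPKM untreated (log2 change 0.15, blocked adjusted p = 0.735, limma). HIST1H2BJ overlapped too, at 67.6 and 107 FPKM with compound B, against 65.0 and 96.7 FPKM untreated.

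The H3 gene HIST1H3B stood at 8.70 and 4.79 FPKM with compound B, against 1.31 and 1.34 FPKM in untreated H596, a log2 change of 1.69 (SE 0.23, adjusted p = 0.105 unpaired and 0.00175 blocked, limma). HIST4H4, the lone member on chromosome 12, stood at 3.41 and 15 FPKM with compound B, against 1.13 and 1.38 FPKM untreated (log2 change 1.90, SE 0.51, blocked adjusted p = 0.00395, limma). On the log2(FPKM + 1) scale its treated libraries lay farther apart than those of any other member. HIST1H4K, another H4 gene, stood at 5.59 and 7.12 FPKM with compound B, against 1.27 and 3.63 FPKM untreated (log2 change 1.17, blocked adjusted p = 0.0178, limma). HIST1H2BG reached 0.560 and 1.15 FPKM with compound B, and both untreated libraries list it at 0.

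At the low end in H596, HIST2H2AC stood at 11.7 and 5.30 FPKM with compound B, against 30.6 and 11.6 FPKM untreated (log2 change -1.16, adjusted p = 0.821 unpaired and 0.00256 blocked, limma). Its libraries overlap between the groups, but within each replicate number the treated one was lower. HIST1H4J stood at 3.42 and 0.900 FPKM with compound B, against 5.02 and 5.96 FPKM untreated (log2 change -1.16, adjusted p = 0.572 unpaired and 0.0467 blocked, limma). HIST1H2AJ stood at 4.41 and 3.83 FPKM with compound B, against 10.6 and 9.84 FPKM untreated (log2 change -1.13) and missed the threshold in both fits (0.715 and 0.0505). HIST1H1C stood at 163 and 126 FPKM with compound B, against 198 and 219 FPKM untreated, without overlap, and did not pass either (log2 change -0.54, adjusted p = 1.00 unpaired and 0.222 blocked, limma).

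**Figure D3:**
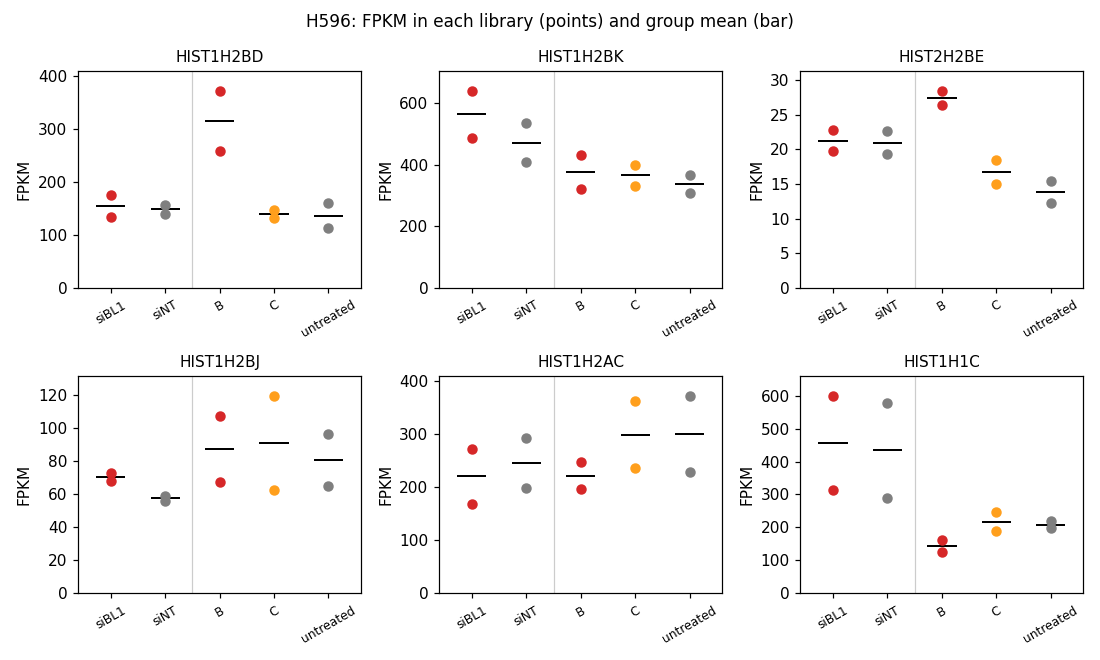
FPKM of 6 histone genes in H596, for siBL1 and siNT on the left of the grey line and for compound B, compound C and untreated cells on the right. Points are libraries (2 per group), bars group means, and each axis starts at 0. HIST1H2BD reached 372 and 258 FPKM with compound B, against 146 and 131 FPKM with compound C and 160 and 113 FPKM untreated, while HIST1H2BK and HIST1H2BJ overlapped between these groups.

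The test of the difference between the lines, compound B effect in H596 minus that in H2009, called 1 of 45 members unpaired, HIST3H2BB (difference -1.40, SE 0.24, adjusted p = 0.0492, limma), where 0.125% of all genes were higher and 0.329% lower. HIST3H2BB was listed at 0 in every H596 library and stood at 3.49 and 4.34 FPKM with compound B, against 0.901 and 0.805 FPKM untreated in H2009. It entered through H2009 alone, so the value restates its H2009 change of 1.40 and measures no effect in H596. This call was also lost with each of the 8 libraries left out in turn, with a pseudocount of 0.1 and without the mean-variance trend. With the block 16 members had a smaller effect in H596 and 3 a larger one, where 8.19% and 6.11% of all genes did. Of the 16, HIST1H3A and HIST3H2BB were at 0 in H596 throughout. HIST3H2A, HIST1H2AE and HIST1H2BG reached at most 0.104, 0.0786 and 1.15 FPKM in an H596 library of that table. These genes passed the filter through H2009 alone. A smaller effect in H596 was therefore favoured for them and is not read as a difference between the lines. The most abundant H2B gene was among the 16: HIST1H2BK had a log2 change of 0.15 in H596 and 1.71 in H2009 (adjusted p of the difference = 0.229 unpaired and 0.00645 blocked, limma). HIST1H2BJ had one of 0.10 in H596 and 2.01 in H2009 (0.203 unpaired and 0.00115 blocked). HIST1H2AC had one of -0.40 in H596 and 1.44 in H2009 (0.232 unpaired and 0.00344 blocked). The 3 with a larger effect in H596 were HIST1H2BF, HIST1H3B and HIST1H4K, all below 1 FPKM in every H2009 library. They passed the filter through H596 alone, so a larger effect there was favoured by the filter and is not read as a difference between the lines. For HIST1H2BC the effect was 1.06 in H596 and 1.09 in H2009, a difference of -0.03 with a blocked adjusted p of 0.922 (limma).

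**Figure D4:**
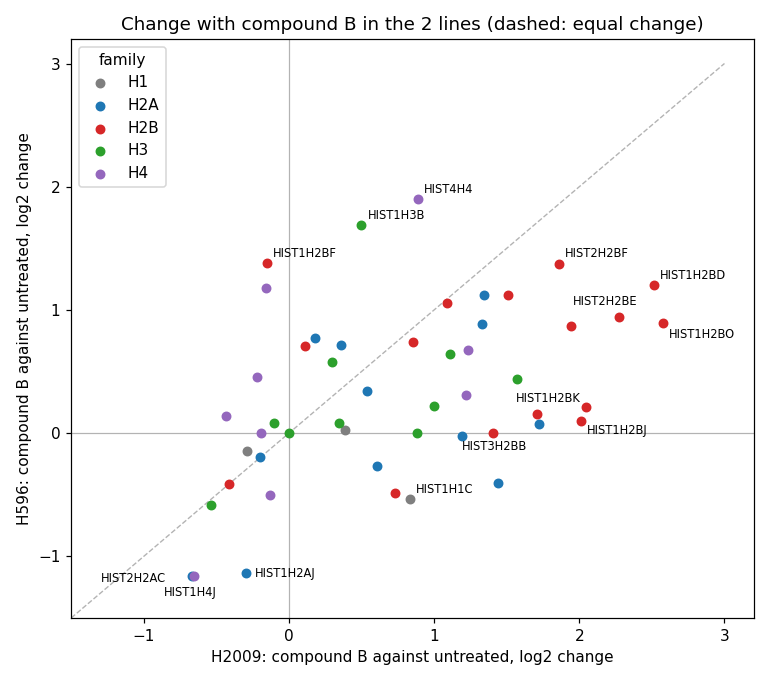
Log2 change of each listed histone gene with compound B against untreated cells, H2009 on the horizontal and H596 on the vertical axis, coloured by family, with the dashed line at equal change. HIST1H2BJ and HIST1H2BK lie near 0 in H596 and at 2.01 and 1.71 in H2009, HIST1H2BF lies at 1.38 in H596 and -0.15 in H2009, and HIST2H2AC is below 0 in both lines.

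Knockdown of RUVBL1 in H2009 gave calls in the higher direction, in the fit with the block. Of 26 listed members 17 passed the filter. The unpaired fit called 0 of them, and 0.0% of all genes. An unadjusted p under 0.05 was found for 10 members, and for 532 of all 11223 genes tested. The fit with the block called 15 members higher and 0 lower, where 15.4% of all genes were higher and 27.0% lower. The smallest unpaired adjusted p of a member was 0.967. The median log2 change over the 26 was 0.75, against -0.07 for all genes, and by family it was 1.37 for the single H1 gene, 1.02 for 14 H2B, 0.71 for 2 H4, 0.70 for 3 H3 and 0.56 for 6 H2A genes. With the block 10 of 11 tested H2B, 3 of 3 H2A, 1 of 2 H4 and the H1 gene were called. The filter took the mean over siBL1 and siNT libraries together. All 3 tested H2A genes, HIST1H2AC, HIST1H2AG and HIST1H2AM, averaged below 1 FPKM with siNT (0.905, 0.726 and 0.856 FPKM). They passed the filter through siBL1 alone, as did HIST1H2BN, HIST1H2BO, HIST2H2BF and HIST1H4H, so a higher call was favoured for them. The families were not tested against each other. Both siBL1 libraries lay above both siNT libraries for 18 members and below for 1, where 12.7% and 18.8% of all genes did. With no filter the blocked count was 18 higher and 0 lower.

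HIST1H2BD stood at 33.6 and 29.6 FPKM with siBL1 and at 5.92 and 3.62 FPKM with siNT in H2009, a log2 change of 2.52 (SE 0.35, adjusted p = 0.967 unpaired and 7.8e-05 blocked, limma). HIST1H2BK stood at 386 and 161 FPKM with siBL1 and at 88.1 and 45.3 FPKM with siNT, a log2 change of 1.96 (SE 0.59, 0.967 unpaired and 8.03e-05 blocked). HIST1H2BO stood at 8.79 and 2.48 FPKM with siBL1 and at 0.602 and 0.439 FPKM with siNT, a log2 change of 1.94 (SE 0.55, blocked 0.000832). In these genes replicate 1 of siBL1 was the higher one, and the groups did not overlap. HIST1H2BJ stood at 9.56 and 11.4 FPKM with siBL1 and at 2.2 and 2.54 FPKM with siNT, a log2 change of 1.76 (SE 0.29, blocked 0.000154). HIST1H1C, the single H1 gene in that table, stood at 13.6 and 3.72 FPKM with siBL1 and at 3.10 and 1.51 FPKM with siNT (log2 change 1.37, blocked 0.0013). HIST1H4H stood at 2.61 and 3.60 FPKM with siBL1 and at 0.477 and 1.29 FPKM with siNT (log2 change 1.15, blocked 0.000515). At the other end HIST1H2BM, which did not pass the filter, stood at 0.514 and 0.523 FPKM with siBL1 and at 0.566 and 1.04 FPKM with siNT. HIST2H2AC, also below the filter, had a log2 change of 0.01.

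Knockdown of RUVBL1 in H596 called histone genes about as often as genes at large, in both directions. Of 42 listed members 37 passed the filter, and the unpaired fit called 0 (0.0% of all genes). An unadjusted p under 0.05 was found for 1 member, and for 137 of all 12004 genes tested. With the block 7 members were higher and 10 lower, where 19.8% and 26.6% of all genes were, so these shares are near the background. Changes of listed members ran between -0.58 and 0.76 with a median of -0.03, against -0.01 for all genes. Both siBL1 libraries lay above both siNT libraries for 6 members and below for 5, where 9.27% and 8.55% of all genes did. HIST1H4J, an H4 gene, stood at 2.61 and 2.05 FPKM with siBL1 and at 0.819 and 1.42 FPKM with siNT, without overlap (log2 change 0.66, blocked adjusted p = 0.0118, limma). HIST1H2BJ stood at 72.5 and 68.1 FPKM with siBL1 and at 58.6 and 56.1 FPKM with siNT, also without overlap (log2 change 0.29, blocked 0.00111). HIST1H2BK stood at 640 and 485 FPKM with siBL1 and at 534 and 407 FPKM with siNT, a log2 change of 0.26 (SE 0.28, adjusted p = 1.00 unpaired and 0.00169 blocked, limma). HIST1H2BD stood at 175 and 134 FPKM with siBL1 and at 157 and 139 FPKM with siNT, a log2 change of 0.05 (blocked 0.487). HIST1H2BL, an H2B gene of lower level, stood at 1.24 and 2.03 FPKM with siBL1 and at 2.30 and 3.56 FPKM with siNT, a log2 change of -0.58 (blocked 0.000961). HIST1H3H stood at 40.9 and 24.4 FPKM with siBL1 and at 51.7 and 39.7 FPKM with siNT, a log2 change of -0.50 (blocked 0.00269). The H2A genes were lower where they were called: with the block 4 of 8 tested passed lower and 0 higher, among them HIST2H2AC (log2 change -0.44, blocked 0.00136). The siRNA tables hold 1 line each and the days of treatment differ, so the knockdown was not tested between the lines.

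Many H2A and H2B genes sit head to head, with starts less than 250 bases apart and a shared promoter. Of the members, 10 such pairs had both genes in the compound table. With compound B in H2009 both genes of 7 pairs lay above the untreated cells, where 27.5% of all genes, taken singly, did. The median change was 1.46 for the H2B and 0.87 for the H2A partners. In H596 both genes of 3 pairs did, where 13.8% of all genes, taken singly, did. The medians there were 0.88 for the H2B and 0.21 for the H2A partners. The pair of HIST2H2BE and HIST2H2AC on chromosome 1, with starts 236 bases apart, parted. With compound B the log2 change of HIST2H2BE was 2.27 in H2009 and 0.94 in H596, and that of HIST2H2AC was -0.67 in H2009 and -1.16 in H596. With siBL1 it was 1.03 in H2009 and 0.02 in H596 for HIST2H2BE, and 0.01 in H2009 and -0.44 in H596 for HIST2H2AC. In H596 with compound B, HIST1H2BC and HIST1H2AC had changes of opposite sign (1.06 and -0.40), and so had HIST1H2BL and HIST1H2AI (-0.48 and 0.34). HIST1H2BM and HIST1H2AJ were both on the low side with compound B, at -0.41 and -0.30 in H2009 and -0.41 and -1.13 in H596. The differences within pairs were not tested. The bases between the starts of HIST2H2BE and HIST2H2AC are shown because this pair parted most, with the octamer and CCAAT in capitals on either strand (RefSeq, GRCh38.p14).
HIST2H2BE to HIST2H2AC, chr1:149886683-149886917, plus strand: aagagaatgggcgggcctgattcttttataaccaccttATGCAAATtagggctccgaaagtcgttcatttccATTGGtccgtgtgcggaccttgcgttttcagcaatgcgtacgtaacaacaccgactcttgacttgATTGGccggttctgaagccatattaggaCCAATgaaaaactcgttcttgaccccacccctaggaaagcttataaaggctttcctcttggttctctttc

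**Figure D5:**
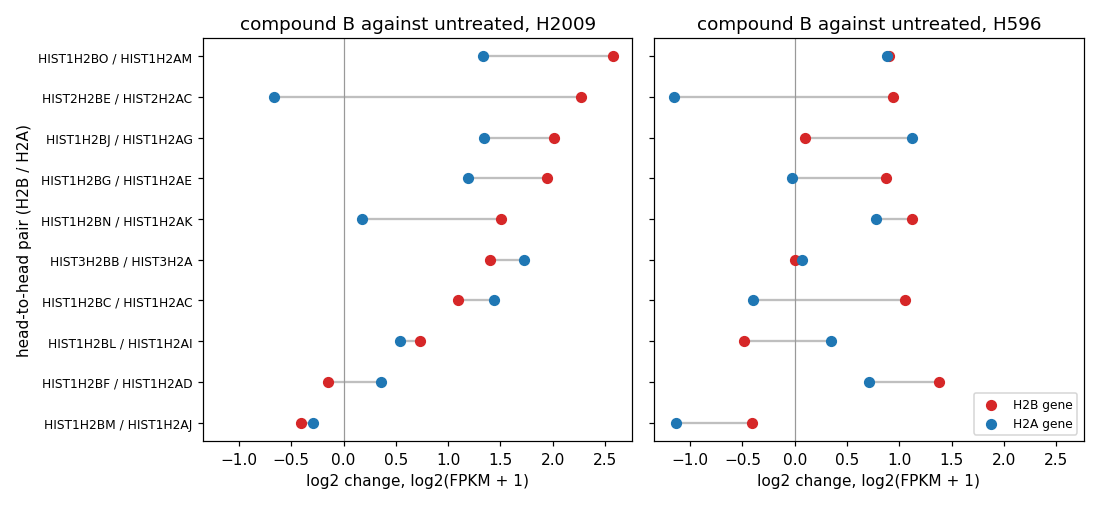
Log2 change with compound B against untreated cells for 10 head-to-head pairs of an H2B gene (red) and an H2A gene (blue), in H2009 (left) and H596 (right), with a grey line joining each pair. HIST2H2BE and HIST2H2AC stand farthest apart, at 2.27 and -0.67 in H2009 and 0.94 and -1.16 in H596.

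Genes that work around the histone messages were read from lists that share no member with the clusters. Of 17 genes of S phase, compound B in H2009 lowered 3 and raised 0 (limma, unpaired) and with the block lowered 10 and raised 2. Of all genes, 5.02% and 22.4% were called lower in these fits, and 6.36% and 22.2% higher. The 3 lowered in the unpaired fit were CCNA2 (cyclin A2), MCM5 and MCM7 (subunits of the replicative helicase), and their log2 changes were -0.97, -0.94 and -0.88. In H596 compound B lowered 1 with the block, RRM2 (ribonucleotide reductase, log2 change -0.55), where 2.89% of all genes were lower. That count is near the background. With siBL1 the blocked fit lowered 13 in H2009 and 14 in H596, where 27.0% and 26.6% of all genes were lower. It raised 0 and 1, where 15.4% and 19.8% of all genes were higher. RRM2 stood at 29.4 and 13.8 FPKM with siBL1 and at 112 and 49.9 FPKM with siNT in H2009, and at 53.4 and 58.3 FPKM with siBL1 and 103 and 110 FPKM with siNT in H596. Whether these values bear on the histone genes was not tested.

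Of 19 genes of histone transcription and 3' end processing, 0 passed unpaired in these 4 comparisons. With the block, siBL1 gave 4 higher and 4 lower in H2009 and 0 higher and 8 lower in H596, where 15.4% and 27.0% of all genes were called higher and lower in H2009 and 19.8% and 26.6% in H596. The H2009 counts are near that background. Compound B with the block gave 1 higher and 4 lower in H2009, where 22.2% and 22.4% of all genes were. It gave 0 higher and 1 lower in H596, where 3.79% and 2.89% of all genes were. The lower counts are near these shares. SLBP, the stem-loop binding protein, stood at 185 and 75.7 FPKM with siBL1 and at 281 and 122 FPKM with siNT in H2009 (log2 change -0.64, adjusted p = 1.00 unpaired and 0.00201 blocked, limma). With compound B in H2009 it stood at 227 and 150 FPKM, against 289 and 192 FPKM untreated, and did not pass (blocked 0.0647). NPAT, the activator of histone transcription, did not pass in any of them.

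Of 17 histone chaperones, compound B in H2009 raised 1 and lowered 3 unpaired, where the rates over all genes were those given above. ASF1B, which carries H3 and H4 in dividing cells, stood at 144 and 114 FPKM with compound B, against 55.6 and 40.1 FPKM untreated (log2 change 1.42, SE 0.27, adjusted p = 0.0101, limma). NASP, another carrier of H3 and H4, stood at 63.1 and 63.1 FPKM with compound B, against 112 and 125 FPKM untreated (log2 change -0.90, adjusted p = 0.0113, limma). ANP32E, which removes H2A.Z from chromatin, and CHAF1B, a subunit of the replication-coupled assembly factor CAF-1, changed by -1.12 and -0.66. In H596 the log2 change with compound B was 0.51 for ASF1B and -0.81 for ANP32E, past the threshold with the block (0.0398 and 0.00948) and not without it. With siBL1 the block called 1 chaperone higher and 5 lower in H2009, and 1 higher and 9 lower in H596. Of all genes, 15.4% and 19.8% were higher and 27.0% and 26.6% lower in these lines, so the lower count in H2009 is near the background.

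Among 11 listed histone variant genes outside the clusters, compound B in H2009 raised H1F0 and H2AFJ and lowered CENPA (unpaired). Of all genes, 6.36% were called higher and 5.02% lower in that fit. With the block 2 variants were higher and 2 lower, where 22.2% and 22.4% of all genes were, so these counts are near the background. H1F0, the linker histone H1.0 of cells that stop dividing, stood at 117 and 114 FPKM with compound B, against 51.1 and 64.6 FPKM untreated (log2 change 1.00, adjusted p = 0.0313, limma). H2AFJ stood at 20.8 and 26.0 FPKM with compound B, against 9.88 and 11.8 FPKM untreated (log2 change 1.04, adjusted p = 0.0332, limma). CENPA, the centromeric H3, stood at 29.0 and 25.2 FPKM with compound B, against 57.4 and 63.6 FPKM untreated (log2 change -1.13, adjusted p = 0.0231, limma). In H596 H1F0 stood at 216 and 267 FPKM with compound B, against 121 and 172 FPKM untreated (log2 change 0.73, adjusted p = 0.610 unpaired and 0.0162 blocked, limma). With the block, siBL1 gave 0 variants higher and 2 lower in H2009, and 0 higher and 7 lower in H596, of 9 and 11 listed. Of all genes, 15.4% and 19.8% were higher and 27.0% and 26.6% lower in these lines. The lower count in H2009 is near that background. H3F3A, a gene with near-identical copies, had 0.136 and 271 FPKM with compound B, against 0.113 and 130 FPKM untreated in H2009, so its value depended on the replicate more than on the group.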

How the data were processed

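RNA was measured by poly(A)-selected RNA sequencing in 20 libraries of 10 groups. The authors deposited FPKM values per gene in 3 tables, for which the submitters' processing notes name TopHat2 2.0.12, Cufflinks 2.2.1, CASAVA 1.8.2 and the hg19 build; the sources used here name no gene annotation. FPKM is scaled by each gene's own length, so whole reads were not recovered from low values and depth is unknown. An FPKM of exactly 0 may be a failed estimate. Library totals ranged from 398195 to 749060 FPKM. Of the H2009 siRNA table, 19 entries whose names had become dates were left out.

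Differences were tested within each table, since tables may have been normalized separately, on log2(FPKM + 1) with limma 3.58.1 in R 4.3.3 (empirical Bayes with trend). Genes entered at a mean of 1 FPKM or more (for compounds, in the 6 libraries of either line), and p-values were adjusted by Benjamini-Hochberg over all of them (12781, 11223 and 12004 genes). One fit took all 12 compound libraries. This log scale understates changes of low genes. Fits were also run on simulated data with independent normal noise, and no result here rests on that run.

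Libraries with the same replicate number deviated together in all 45 pairs of groups (r between 0.459 and 0.966), so the numbers were taken to pair libraries; the labels do not say what they mark. The unpaired fit remained the main result. Genes were named as the 6 highest and 3 lowest changes per comparison, the most abundant of each family and up to 12 members in all tables; HIST1H2AI and other pair partners, SLBP and NPAT were added for their place or role, after their values were seen. Pathway genes are the highest and lowest of their list. Members, lists and tests were chosen with earlier results of these data known.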

Additional observations from a re-analysis of the deposited data

Results flagged for a closer look

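The test of the difference between the lines, H596 minus H2009, called HIST3H2BB with compound B at -1.40 on the log2 scale. The gene was listed at 0 in all H596 libraries of that table, so the value restates its H2009 change and no H596 effect was measurable. The call was also lost with each of the 8 libraries left out, with a pseudocount of 0.1 and without the mean-variance trend.

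With siBL1, HIST2H2BA lay on opposite sides of its controls in the lines, a difference that was not tested. It lay above both controls in H2009 (6.52 and 2.21 FPKM with siBL1, 1.43 and 1.36 FPKM with siNT, a log2 change of 1.04) and below both in H596 (2.07 and 1.71 FPKM with siBL1, 3.39 and 2.18 FPKM with siNT, a log2 change of -0.37). Groups of 2 libraries are too small for a test of outlying samples.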

How the results depend on the processing

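Each count of called histone genes was recomputed with a pseudocount of 0.1, no filter, no genes listed at 0, quantile normalization, no mean-variance trend, a replicate block, the line's own libraries and each library left out. Chosen later were the replicate block without a filter, with quantile normalization and with only the line's libraries. The replicate block gave 15 calls for siBL1 in H2009 (16 with quantile normalization, 18 without a filter) and 17 for siBL1 in H596 (20 and 20). It gave 20 for compound B in H596 (20, 19, and 16 with the line's 6 libraries), 18 for compound B against C in H596 (19, 18 and 14), and 19 for the difference between the lines (19 and 20). Quantile normalization alone gave 1 call for compound B in H596. For compound B in H2009 the line's 6 libraries gave 12, sharing 10 with the main 21, and leaving out genes listed at 0 gave 14, all among the 21. Against compound C in H2009 they gave 13, as did leaving out genes listed at 0, which tests 30 members. The difference between lines gave 0 without genes listed at 0, without the trend and with a pseudocount of 0.1. With each library left out, counts ranged over 0 to 1 for siBL1 in H2009 and for compound B in H596, 8 to 17 for compound B in H2009, 8 to 16 against compound C in H2009, and 0 to 1 for the difference between lines (the 1 was not HIST3H2BB); they stayed at 0 for the others. With 2 numbers per group, a block cannot be fitted with a library left out of the siRNA tables. The lone library of a shortened group is assumed to vary like the other groups.

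Of 37 changes of named members, 4 turned sign when a library was left out: HIST1H4E with siBL1 in H2009 (-0.22 to 0.75), HIST2H2BC there (-0.34 to 1.12), HIST1H2BO with siBL1 in H596 (-0.056 to 0.73) and HIST2H2AC there (-1.12 to 0.24). Under the other alternatives none did. The block changed no call with compound C. Depth is unknown, so no limit on low values can be given.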
